A study of Mus musculus with 1753 samples.

Results

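The smooth muscle contractile genes are the 10 genes Acta2, Myh11, Tagln, Cnn1, Smtn, Mylk, Myl9, Tpm2, Lmod1 and Actg2, taken by symbol from the 46517 mouse genes of the deposited count table. All 10 had counts. They were followed over 1753 single cells of hindlimb skeletal muscle from adult male mice aged 10 to 20 weeks, sorted one cell to a well and sequenced with Smart-seq2, a full-length method without molecular identifiers. The cells carried the cluster labels 1 to 10 that the study had assigned from the same counts. Cluster 7 was its mural cells, clusters 2 and 9 its perimysial fibroblasts, cluster 4 its paramysial fibroblasts, clusters 1, 3, 5, 6 and 8 its endomysial fibroblasts, and cluster 10 a further fibroblast group marked by Ngfr and Cspg4. The comparisons asked how far this gene programme was restricted to the mural cells, which fibroblasts carried parts of it, and how it varied from one mural cell to the next.

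Smooth muscle cells contract by sliding actin over myosin. Calcium activates myosin light chain kinase (Mylk), which phosphorylates the regulatory light chain (Myl9) on the smooth muscle myosin heavy chain (Myh11), while tropomyosin (Tpm2), calponin (Cnn1), transgelin (Tagln), smoothelin (Smtn) and leiomodin (Lmod1) bind or organise the smooth muscle actins encoded by Acta2 and Actg2. Most of these genes are known targets of serum response factor and its coactivator myocardin, which act at a short DNA motif called the CArG box, and in blood vessels they distinguish contractile smooth muscle from pericytes and fibroblasts.

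The labels named 5 mouse strains and no individual animals, so the strain label served as the replicate. C57BL6 was wild type and sorted with antibodies, PdgfrbGFP carried a GFP transgene for Pdgfrb, the PdgfraGFP - PdgfrbGFP pool combined mice carrying GFP reporters for Pdgfra and for Pdgfrb, Cspg4dsRED carried a dsRed transgene for Cspg4, and Acta2GFP carried a GFP transgene for Acta2. The Acta2GFP cells were therefore chosen on a reporter of a member, and their dissociation also contained elastase, so sort, dissociation and strain cannot be told apart there. The tissue label of every cell was skeletal muscle, although the text of the extraction label names heart. Column names gave the muscle for some cells only. In the pool, gastrocnemius and soleus were on separate plates, so plate and muscle cannot be told apart there. PdgfrbGFP included cells of both muscles and cells without a named muscle. Sorted cells were positive for a mesenchymal reporter or for PDGFRα or PDGFRβ antibody and negative for the endothelial protein CD31. Every p-value below measures the spread between strain labels, whose independence as mice was assumed, and since the clusters were drawn from these counts a difference between clusters describes the clustering and is not independent evidence.

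The cells held 46097 to 1055869 counts each; the median was 258251 over all of them and 156959 in cluster 7. Levels are given as scaled counts, that is, counts per 500000 gene counts of the cell with spike-ins left out, averaged per strain label and then over labels with 3 or more cells. A cell was said to carry a gene at 100 or more scaled counts, with exact binomial (Clopper-Pearson) 95% intervals that cover counting error only. In cluster 7 the 12 fibroblast markers summed to 821 scaled counts against 12047 to 23754 in the fibroblast clusters, and the 14 pericyte markers to 3909 against 230 to 571. The pericyte sum was uneven among mural cells: the median cell had 1726 against 171 to 519 in the fibroblast clusters, and single cells reached 14689 and 16209.

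The members lie on 8 chromosomes (GRCm38, GENCODE annotation). Among those described most below, Acta2 (ENSMUSG00000035783) lies at chr19:34241090-34255590 on the minus strand, Myh11 (ENSMUSG00000018830) at chr16:14194535-14291372 on the minus strand, Tagln (ENSMUSG00000032085) at chr9:45929619-45936058 on the minus strand, Mylk (ENSMUSG00000022836) at chr16:34745210-35002420 on the plus strand and Myl9 (ENSMUSG00000067818) at chr2:156775420-156781658 on the plus strand. Opposite-strand genes, Pcsk7 and Gm48529, cover 67.9% of the exon bases of Tagln, and no source used here states whether counting used strand. Pcsk7 itself had 28.02 ± 12.6 scaled counts in cluster 7 and 12.3 ± 6.06 in fibroblasts (SD, n = 5 strain labels), against 1510 and 22.7 for Tagln. No more than 0.34% of the 50-base stretches of any member occurred in another gene.

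Because the CArG box is the motif by which this gene group is best known, the 250 bases before each gene's start were searched for it in the RefSeq promoters of GRCm38.p6, which held 7 of the 10 members and not Myh11, Tagln or Actg2. The box was taken as CC, then 6 bases of A or T, then GG, which reads alike on both strands, and a CArG-like box allowed another base at 1 of the 6 middle positions. A CArG box stood in 1.47% of 32851 promoters and a CArG-like box, which includes it, in 8.59%. Myl9 held the first kind and Acta2 and Myl9 the second, each at a pair of positions, and the other 5 members held neither in this window, which says nothing of other regions. The 4 sites are shown 5′ to 3′ along the gene, 30 bases each, with the box in capitals, and lie at chr19:34255438-34255467, chr19:34255388-34255417, chr2:156775293-156775322 and chr2:156775355-156775384, those of Acta2 on the minus strand and within an annotated exon of another transcript.
Acta2, box starting 84 bases before the start: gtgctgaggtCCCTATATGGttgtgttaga
Acta2, box starting 34 bases before the start: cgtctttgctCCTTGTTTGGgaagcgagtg
Myl9, box starting 161 bases before the start: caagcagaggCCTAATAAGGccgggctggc
Myl9, box starting 99 bases before the start: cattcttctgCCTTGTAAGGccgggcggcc

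All 10 members were higher in the mural cells than in the fibroblasts of the other 9 clusters, in each of 5 strain labels, and all 10 were called under each alternative of this test. By the median over cells instead of the mean, cluster 7 ranked first for 9 of them, since the median of Actg2 was 0 in mural cells and fibroblasts alike. They rose by a median of 6.18 on the log2 scale, where the median over all 13880 genes tested was -0.46. Of those genes 6.15% were called higher and 9.27% lower at an adjusted p under 0.05 (edgeR quasi-likelihood test, Benjamini-Hochberg adjustment). Cluster 7 held the highest mean level of every member, and its range over strain labels overlapped that of the next cluster for none of them. Per kilobase of exon, the mural level was 2520 ± 729 scaled counts for Myl9 and 1975 ± 919 for Acta2, then 760 ± 266 for Tagln, 708 ± 242 for Tpm2, 294 ± 62.4 for Myh11, 189 ± 56.4 for Smtn, 182 ± 103.9 for Cnn1, 140.1 ± 36.98 for Mylk, 97.4 ± 18.99 for Lmod1 and 43.5 ± 20.1 for Actg2 (SD, n = 5 strain labels). Neighbours in this order overlapped in their ranges over strain labels, except that the lowest value of Tpm2, 459.8, lay above the highest of Myh11, 383.

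**Figure D1:**
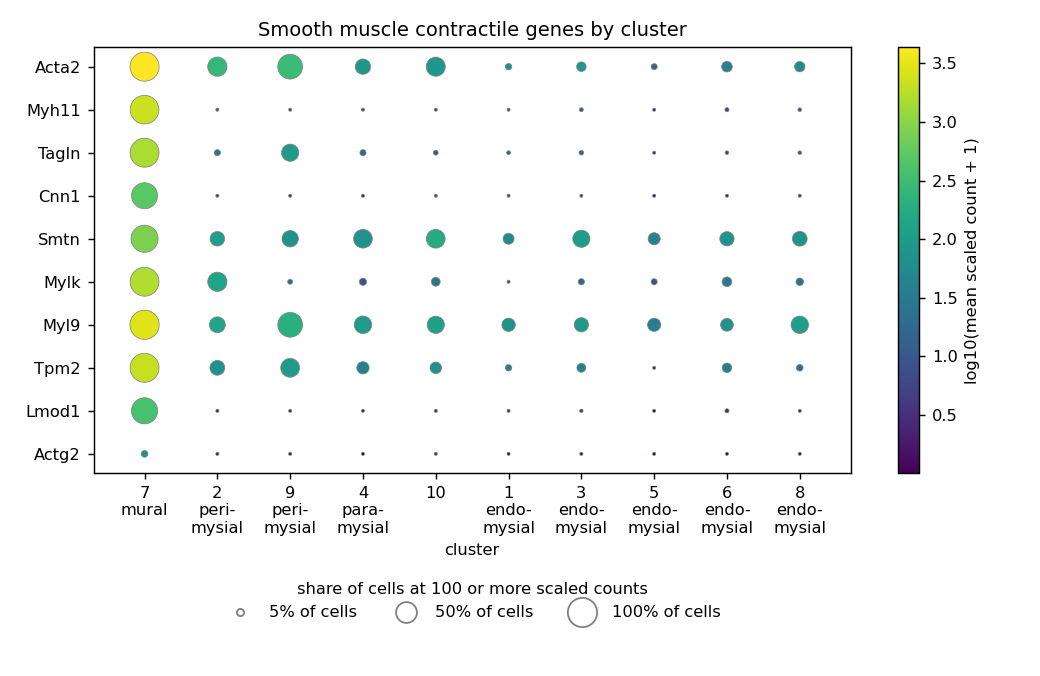
Levels of the 10 members (rows) in the 10 clusters (columns, with the study's class names). Colour gives log10 of the mean scaled count plus 1 over strain labels and circle area the share of cells at 100 or more scaled counts. The column of cluster 7 is brightest for every gene. Among fibroblasts the largest circles of Acta2, Myl9, Tpm2 and Tagln sit in cluster 9 and that of Mylk in cluster 2.

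Of the actins, Acta2, the alpha isoform of vascular smooth muscle, had mural means of 4742, 2521, 7090, 5138 and 2192 scaled counts in Acta2GFP, C57BL6, Cspg4dsRED, PdgfrbGFP and the pool, the order used throughout. The corresponding fibroblast means were 335, 43.7, 175, 70.4 and 27.3. The lowest mural label thus exceeded the highest fibroblast label, and the log2 fold change was 5.53 ± 0.42 (SE, adjusted p = 0.000164). Acta2 was carried by 184 of 187 mural cells, 98.4% (95.4 to 99.7%). Actg2, the gamma actin of visceral smooth muscle, behaved differently in kind: its mural means were 77.2, 113.4, 43.9, 33.5 and 70.9 scaled counts, but only 8 of 187 cells, 4.28% (1.86 to 8.26%), carried it, and the highest of them reached 2221. Actg2 was carried by 0 of 1566 fibroblasts (interval 0 to 0.235%, or up to 0.192% by the rule that 0 counts allow 3), the fibroblast means stayed at or below 1.00, and the log2 fold change was 8.25 ± 1.17 (SE, adjusted p = 0.00219). The cytoplasmic actins moved less. Actb rose by 1.00 ± 0.15 on the log2 scale, whereas Actg1 differed by 0.16 and the skeletal actin Acta1 by -0.93 without being called.

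Myh11, the heavy chain of smooth muscle myosin, had mural means of 2128, 1925, 2497, 2907 and 1715 scaled counts and fibroblast means of 24.03, 1.72, 6.45, 3.52 and 1.66. It differed by 9.25 ± 0.64 on the log2 scale (SE, adjusted p = 0.000106), beside 9.25 for Cnn1 and 9.06 for Lmod1, and the order of these 3 changed with the processing. Its spread over strain labels was narrow beside that of Acta2, and the labels highest for Acta2 and for Myh11 were different ones, Cspg4dsRED and PdgfrbGFP. Myl9, the regulatory light chain that myosin light chain kinase phosphorylates, had mural means of 3175, 2236, 4149, 3059 and 2022 and fibroblast means of 206, 79.8, 163, 82.7 and 62.4 scaled counts. It was carried by 186 of 187 mural cells, the most of any member, and by 27.5% of fibroblasts, and its log2 fold change of 4.67 ± 0.24 (SE, adjusted p = 7.15e-05) was the smallest of the set after that of Smtn. Mylk, the kinase, had mural means of 1823, 1033, 1459, 2130 and 1445 and fibroblast means of 43.7, 90.5, 23.1, 30.4 and 18.6 scaled counts, a log2 difference of 5.71 ± 0.45 (SE, adjusted p = 0.000182). C57BL6 was lowest for Mylk among the mural means and highest among the fibroblast means. Of its 364 fibroblasts, however, 140 were of cluster 2, where its Mylk mean was 212 scaled counts. Its endomysial mean was 14.3, between those of the other labels.

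The actin-binding members differed in how tightly they kept to cluster 7. Cnn1, a calponin that inhibits the myosin ATPase, had mural means of 708, 177, 828.8, 530.4 and 242 scaled counts, and 0 of 1566 fibroblasts carried it, with the same interval of 0 to 0.235%. Lmod1, an actin nucleator of smooth muscle, had mural means of 457, 417, 372, 414 and 261 and was carried by 3 of 1566 fibroblasts. Their log2 fold changes were 9.25 ± 0.96 and 9.06 ± 0.59 (SE). Both were nevertheless missing at the limit from a sizeable part of the mural cells, 78.6% (72.03 to 84.3%) carrying Cnn1 and 79.7% (73.2 to 85.2%) carrying Lmod1.

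Tagln, an actin-bundling calponin relative, had mural means of 1754, 1115, 1996, 1894 and 792 and fibroblast means of 70.97, 7.45, 20.3, 8.90 and 5.67 scaled counts, a log2 difference of 6.65 ± 0.59 (SE, adjusted p = 0.000262). Tpm2, beta tropomyosin, had mural means of 2235, 1337, 3054, 2251 and 1421 and differed by 5.53 ± 0.34. Smtn, which associates with the filaments of contractile smooth muscle, had mural means of 894, 603, 1109, 995 and 542. Its fibroblast means of 92.6, 54.3, 161, 88.4 and 98.05 made it the least restricted member, with a log2 fold change of 3.30 ± 0.23 (SE, adjusted p = 0.000106) and 26.8% of fibroblasts carrying it.

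**Figure D2:**
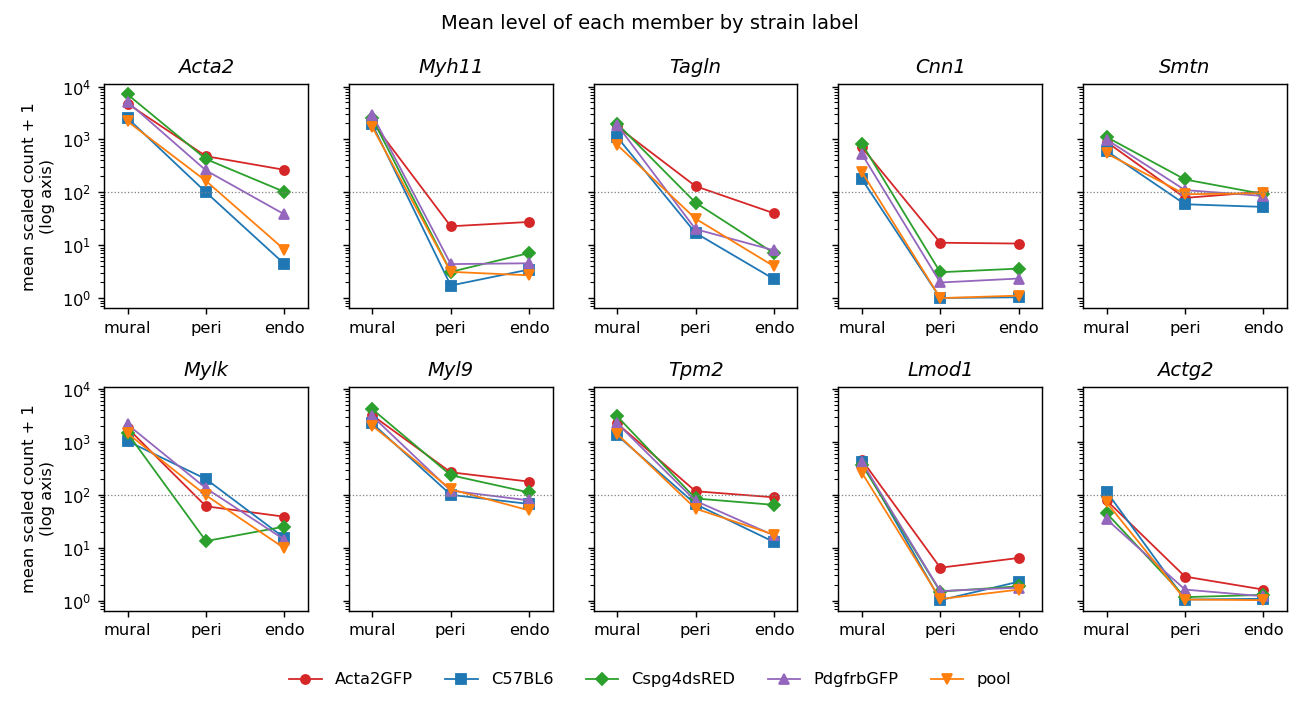
Mean scaled count plus 1 of each member (log axis) in mural, perimysial and endomysial cells, with 1 line for each of the 5 strain labels and a dotted line at 100 scaled counts. The mural points lie above the fibroblast points for every gene and label, and Acta2GFP (red circles) lies highest in endomysial cells for all 10 members.

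Within cluster 7 the labels did not stand in 1 order. Cspg4dsRED was highest for Acta2, Tagln, Cnn1, Smtn, Myl9 and Tpm2, PdgfrbGFP for Myh11 and Mylk, Acta2GFP for Lmod1 and C57BL6 for Actg2, while the pool was lowest for 6 members. The place of C57BL6 for Actg2 rested on 1 cell at 1018 scaled counts among 9, and the Actg2 mean of the pool on 1 cell at 779.7 among 11. These labels held unequal numbers of mural cells, 56, 9, 74, 37 and 11. The 9 C57BL6 cells came from a pair of plates. On the plate with 5 of them the mean levels were 1357 for Acta2, 488 for Myh11, 93.9 for Mylk and 4.57 for Cnn1, and on the other, which held 7 labelled cells in all and 4 of cluster 7, they were 3976, 3720, 2207 and 393. Those 4 cells carried immune markers at 518 to 1715 scaled counts in sum, where the median cell of cluster 7 had 0, and the part of these markers in the plate difference was not tested.

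Counted per cell, most mural cells carried nearly the whole programme, whereas fibroblasts carried none or a part of it. The median mural cell carried 9 of the 10 members and 157 of 187 carried 8 or more, whereas no fibroblast carried more than 7 and 607 of 1566 carried none. Between these ends, the share of cells carrying 3 or more members, averaged over strain labels because the clusters drew on them unequally, was 44.1% ± 19.3 in cluster 9 (SD, n = 4 labels) and 32.1% ± 20.1 in cluster 2 (n = 5). It was 16.04% ± 12.3 in cluster 10 (n = 3), 11.05% ± 15.7 in cluster 4 (n = 4) and 0 to 10.3% in the endomysial clusters, and the labels of clusters 2 and 9 overlapped. With all cells pooled the shares were 49.2%, 23.8%, 20.97% and 13.3%, against 0 to 4.32%. Smtn (26.8%), Myl9 (27.5%) and Acta2 (19.5%) were the members fibroblasts carried most often, followed by Tpm2 (11.7%), Mylk (11.2%) and Tagln (2.62%). Myh11 was carried by 6 of 1566 fibroblasts.

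**Figure D3:**
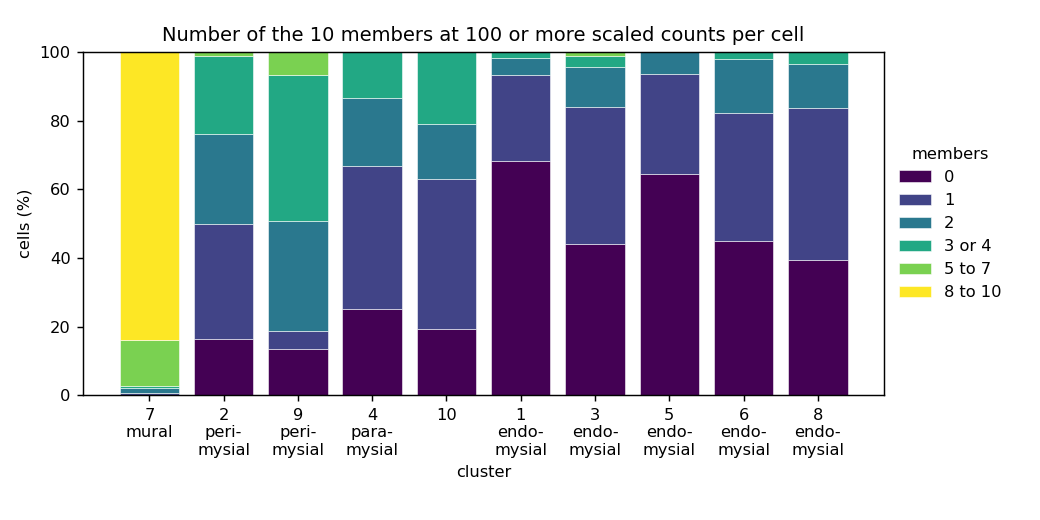
Share of cells (%) of each cluster by the number of members at 100 or more scaled counts, from 0 (dark) to 8 to 10 (yellow). The yellow part, 83.96% of cluster 7, occurs in that cluster alone, and with the cells of all labels pooled, those with 3 or 4 members are most frequent in cluster 9.

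Among fibroblasts, Acta2, Tagln, Tpm2 and Myl9 were higher in the perimysial cells of clusters 2 and 9 than in the endomysial cells, while Myh11, Cnn1 and Lmod1 were not called. These were 4 of the 9 members tested (Actg2 was too low to test), none was called lower, and of all 14121 genes 2.32% were called higher against 3.26% lower. The members' median was 0.94 on the log2 scale against -0.19 over all genes. The endomysial sums entered this comparison and the 2 that follow, which therefore share that side.

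Acta2 had perimysial means of 481, 99.2, 424, 258 and 163 scaled counts and endomysial means of 265, 3.42, 100.9, 37.3 and 7.25. It was higher in every label, by 3.37 ± 0.58 on the log2 scale (SE, adjusted p = 0.0157), although the groups overlapped, since the endomysial mean of the Acta2GFP label exceeded the perimysial means of 3 labels. The cells of Acta2GFP had been sorted for Acta2 reporter signal, and 73.3% of its endomysial cells carried Acta2, against 1.44% of those of C57BL6. Tagln had perimysial means of 130, 16.1, 62.9, 19.1 and 30.7 and endomysial means of 39.2, 1.29, 6.06, 7.00 and 3.00, again higher in each of 5 labels, by 3.42 ± 0.51 (SE, adjusted p = 0.00818).

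Tpm2 had perimysial means of 115.7, 65.5, 84.1, 75.7 and 53.8 against endomysial 88.6, 11.8, 63.4, 16.05 and 16.6 scaled counts, a log2 difference of 1.61 ± 0.35 (SE, adjusted p = 0.0407). Myl9 had perimysial means of 265, 98.9, 233, 118.6 and 125.8 against 176, 65.99, 109.4, 77.2 and 49.6, a difference of 0.94 ± 0.19 (SE, adjusted p = 0.0263). Both were higher within each of 5 labels, and their groups overlapped across labels. The call was lost for Tpm2 when any label but Cspg4dsRED was left out, and for Myl9 without Acta2GFP, C57BL6 or the pool. Acta2 lost it without PdgfrbGFP or the pool, and Tagln kept it whichever label was left out.

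Mylk differed between strain labels in direction. Its perimysial means were 59.5, 197, 12.3, 131.8 and 96.6 scaled counts and its endomysial means 37.5, 14.3, 24.02, 13.2 and 8.76, so it was higher in 4 of 5 labels and lower in Cspg4dsRED. The difference of 2.27 ± 0.80 on the log2 scale did not pass (SE, adjusted p = 0.206), and without Cspg4dsRED it was 2.985 and was called. Smtn at 0.41 ± 0.22, Myh11 at -0.42 ± 0.65, Cnn1 at -0.85 ± 0.80 and Lmod1 at -1.79 ± 0.94 were not called. For the last 3 the endomysial means were at most 26.5, 9.74 and 5.39 scaled counts, each in Acta2GFP.

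The perimysial clusters carried different members. In cluster 2, Mylk reached 128.01 ± 72.04 scaled counts (SD, n = 5 labels) with 42.4% of cells carrying it (36.4 to 48.5%), against 15.96 ± 7.91 (n = 4) and 1.69% (0.0429 to 9.09%) in cluster 9. Tagln showed the opposite order, with 25.7 ± 29.6 and 3.35% (1.54 to 6.26%) in cluster 2 and 100.1 ± 49.2 and 33.9% (22.1 to 47.4%) in cluster 9. Acta2GFP supplied 38.98% of the cells of cluster 9 and 4.46% of those of cluster 2, so the other members were compared as means over the 4 labels with cells enough in both. On that footing Acta2 was carried by 63.3% of cluster 9 and 57.7% of cluster 2, with levels of 301 and 233 scaled counts, Myl9 by 63.1% and 40.98%, and Tpm2 by 39.1% and 26.5%. For Mylk (2.08% and 37.6%) and Tagln (30.2% and 5.56%) all 4 labels went the same way. These are descriptions of clusters that the same counts defined, and for each of these genes the ranges over strain labels of the clusters overlapped, for Mylk through the value of 13.9 in the Cspg4dsRED cells of cluster 2.

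Markers of other cell types were read beside these values. The 14 pericyte markers summed to 434 and 230 scaled counts in clusters 2 and 9, within or below the 297 to 532 of the endomysial clusters, and none of the 12 tested was called higher. The 6 satellite cell markers summed to 263 in cluster 2 and 701 in cluster 9 against 0.703 to 40.4 in endomysial clusters, almost all of it Chodl (252 and 687), while Pax7 and Cdh15 were at 0 in cluster 9. The paper names Chodl among the genes that vary within the perimysial cells, so these sums are not specific to satellite cells. Of the 20 skeletal muscle fibre markers, 15 were tested and none was called, with a median of -1.89.

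**Figure D4:**
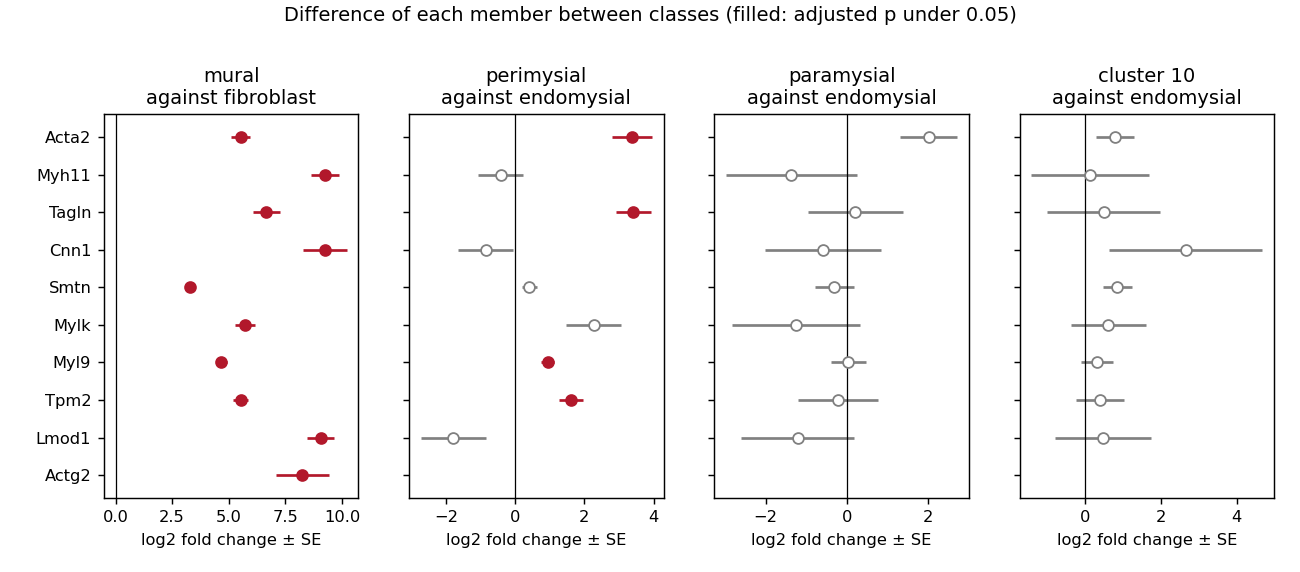
Log2 fold change of each member (points) with its standard error (bars) in 4 comparisons over strain labels, each panel with its own axis. Filled points passed an adjusted p under 0.05, which were all 10 members in mural against fibroblast, Acta2, Tagln, Myl9 and Tpm2 in perimysial against endomysial, and none in the other panels.

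No member passed the test in the paramysial cells of cluster 4 (60 cells, 4 labels) or in cluster 10 (62 cells, 3 labels), by edgeR or by DESeq2. In cluster 4 against endomysial cells, 0.0757% of 14533 genes were called higher, 0.0206% were called lower, and 1 of 9 members, Acta2, had an unadjusted p under 0.05. Its level in cluster 4 was 191, 43.1, 41.3 and 58.6 scaled counts in Acta2GFP, C57BL6, PdgfrbGFP and the pool. These labels held 6, 3, 4 and 46 cells, and the C57BL6 value rested on 1 cell at 127.9. The level was above the endomysial mean of the same label for 3 of them, and above it in all 4 by summed counts. The log2 difference was 2.03 ± 0.71 (SE, adjusted p = 0.494), in a comparison where the median over all genes was -0.86 and that over the members -0.30.

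In cluster 10 against endomysial cells, 0.265% of 12455 genes were called higher, 0.177% were called lower, and no member had an unadjusted p under 0.05. The members' median was 0.49, against -0.41 over all genes (-0.27 with RLE size factors). Smtn, whose mean of 170 ± 69.4 scaled counts (SD, n = 3) was the second highest of the 10 clusters, was 0.86 ± 0.38 higher on the log2 scale (SE, adjusted p = 0.622). Cluster 10 carried Acta2 in 41.9% of cells, but 25 of these 26 cells were from Cspg4dsRED.

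Strain labels differed in how much of the programme appeared outside the mural cells. Expressed as a share of the mural mean of the same label, the endomysial mean of the median member was 2.15% in Acta2GFP, 1.03% in Cspg4dsRED, 0.614% in PdgfrbGFP, 0.355% in the pool and 0.220% in C57BL6. For Myh11, whose endomysial means were 26.5, 2.47, 6.13, 3.55 and 1.70 scaled counts, and for Cnn1, with 9.74, 0.0362, 2.61, 1.34 and 0.114, the value of Acta2GFP lay apart from the other 4. The part of the sort for Acta2 reporter signal, of the elastase and of free RNA in these low levels was not tested.

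Within cluster 7 the members varied together. Over its cells, 187 in all, the correlation of a member with the mean of the other 9 (log2 scaled counts plus 1, centred by plate) had a median Pearson r of 0.564 and Spearman rho of 0.276, given as descriptions because cells share mice, plates and depth. Tpm2 (r = 0.72), Tagln (0.69) and Myh11 (0.64) followed the others most closely, then Myl9 (0.60), Mylk (0.57), Acta2 (0.56), Cnn1 (0.44), Lmod1 (0.42), Smtn (0.40) and Actg2 (0.14). All 45 pairs of members were positively correlated, from Tagln with Tpm2 at 0.91 to Mylk with Actg2 at 0.02, with a median of 0.333. Within strain labels the median r was 0.837 in Acta2GFP, 0.576 in PdgfrbGFP and 0.221 in Cspg4dsRED.

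A few cells carried much of this. In 11 of the 187 cells the endothelial, immune, satellite cell or Schwann cell markers summed to 500 or more scaled counts. Without them the median r was 0.415 and within Acta2GFP 0.515, while rho was 0.303. Those flagged on endothelial markers had pericyte markers at 16209, 14689 and 7926 scaled counts. Leaving out the 11 cells thus also removed cells high in pericyte markers. The lowest pair of cells on the axis, both from Acta2GFP, carried 1 and 2 members and had satellite cell markers at 1906 and 2113 scaled counts. Their fibroblast markers summed to 1707 and 4397 scaled counts, where the median cell of cluster 7 had 536. The satellite cell markers include Chodl, which the paper names in perimysial cells, and also Myf5 and Pax7, whose values are given below. The correlation of the mean of the members with depth was -0.04, with the number of genes detected 0.15 and with the mitochondrial share 0.18.

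When the cells were ranked within plate by their mean over the 10 members and split into a lowest, middle and highest part of 58, 64 and 65 cells, the share of cells carrying a member moved most for Cnn1, Smtn and Lmod1. Acta2 was carried by 94.8%, 100% and 100% of the cells and Myl9 by 98.3%, 100% and 100%, shares that had little room to increase, while their mean levels went from 4852 to 6153 and from 2988 to 3902 scaled counts. Cnn1 was carried by 48.3%, 90.6% and 93.8%, Smtn by 62.1%, 93.8% and 98.5%, and Lmod1 by 58.6%, 82.8% and 95.4%. Actg2, the scarcest, was carried by 1.72%, 0% and 10.8%. The members' increase is fixed by the ranking, so it has no test. Median depth was 154749, 161148 and 146389 counts in the 3 parts.

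Several pericyte markers went the other way along this axis, in a minority of cells. The paper reports capturing only a few pericytes from skeletal muscle. Rgs5, a regulator of G protein signalling abundant in pericytes, was carried by 36.2%, 20.3% and 6.15% of the cells from the lowest to the highest part (r = -0.31, rho = -0.30). Abcc9, a subunit of the potassium channel of pericytes, was carried by 12.1%, 6.25% and 3.08% (r = -0.33, rho = -0.10). Of the 14 pericyte markers 4 had a positive r, with a median of -0.10. Of the 39 other contractile genes with a value 30 did, with a median of 0.23. Over all other genes carried by at least 30% of these cells 762 of 930 did, with a median of 0.10. The share of contractile genes with a positive r was thus not above that of all genes, and the lists had no such carrying limit. Markers of other cell types also had negative values, with medians of -0.34 for the 6 satellite cell markers (1 positive) and -0.07 for the 10 endothelial markers (1 positive). Among the satellite cell markers r was -0.36 for Chodl, also a perimysial gene in the paper, -0.49 for Pax7 and -0.48 for Myf5. Myf5 reached 1331 scaled counts in a cell of the lowest part and had no counts in the other parts. Without the 11 cells named above, some of them high in pericyte markers, 176 were left. The median was then -0.18 for the pericyte markers, again with 4 of 14 positive, and -0.05 for the endothelial markers. It was 0.01 for the 4 satellite cell markers that still had a value, against 0.09 over all other genes. For the other contractile genes the median was 0.15, with 31 of 39 positive, where 744 of the 930 genes were positive. Rgs5 was then at -0.35 (rho = -0.32) and Abcc9 at -0.29 (rho = -0.02). Cspg4 (0.03) and Notch3 (0.08) stayed level over all cells, as did the muscle intermediate filament gene Des (-0.02). Mcam, also a pericyte marker, increased along the axis over all cells (r = 0.18, rho = 0.18). It was carried by 56.9%, 79.7% and 86.2% of the cells from the lowest to the highest part. Without the 11 cells its r was 0.10 and its rho 0.17.

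**Figure D5:**
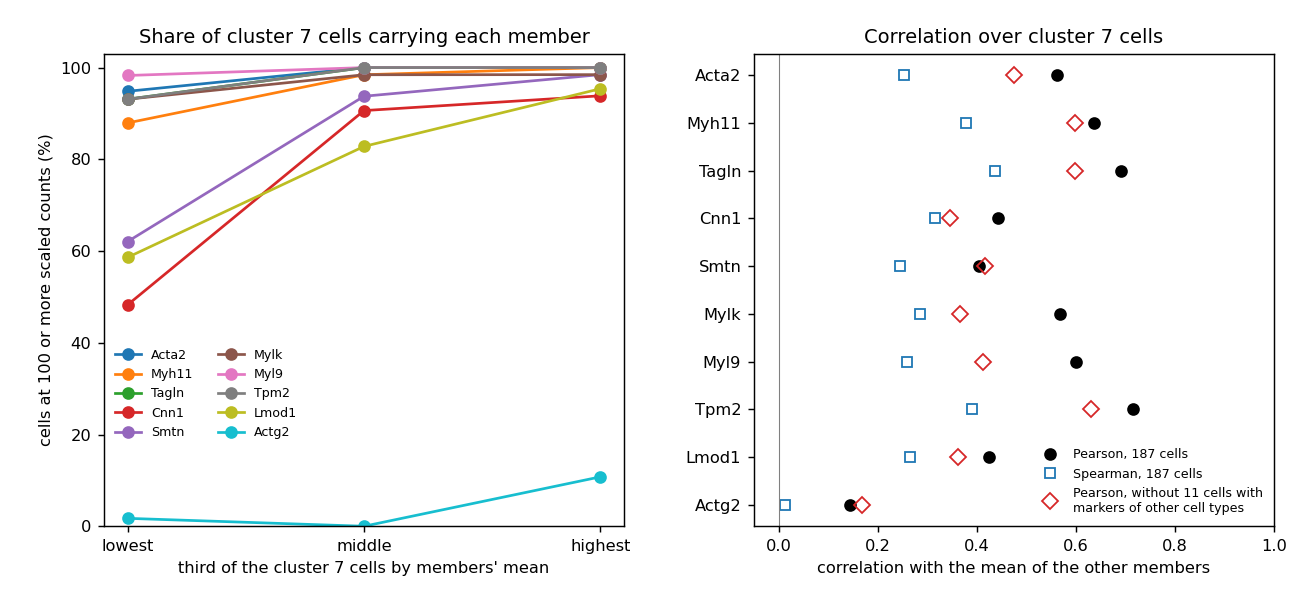
Left, share of cluster 7 cells (%) at 100 or more scaled counts for each member in the lowest, middle and highest part of the cells by the members' mean, with the line of Tagln hidden under that of Tpm2. Right, correlation of each member with the mean of the other members over cells, showing Cnn1, Smtn and Lmod1 as the members whose share moves most and Actg2 as the one that followed the others least.

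The regulators of this gene group were unevenly tied to it. Myocd, the myocardin coactivator, was at 227 ± 99.4 scaled counts in cluster 7 (SD, n = 5) and 0.573 ± 0.751 in fibroblasts, a log2 difference of 10.29 ± 0.98 (SE, adjusted p = 0.000360), but within cluster 7 its r with the members was 0.13. Of 26 regulators tested 5 were higher in mural cells (Myocd, Hey2, Tead3, Mef2c and Heyl) and 2 lower, Klf5 by -6.57 ± 0.81 and Klf4 by -4.12 ± 0.58, Kruppel-like factors known from dedifferentiated smooth muscle. Of all 13880 genes tested, 6.15% were called higher in mural cells and 9.27% lower. Srf, the DNA-binding partner of myocardin, differed by 0.40 and was not called. In perimysial against endomysial cells 23 regulators were tested, 0 were higher and the same Klf5 (-6.01 ± 1.12) and Klf4 (-1.77 ± 0.22) were lower, and Myocd was carried by no cell of cluster 2 or 9. Of all 14121 genes tested, 2.32% were called higher in perimysial cells and 3.26% lower.

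Other contractile and cytoskeletal genes of smooth muscle, 40 by list, gave 25 higher and 2 lower of 38 tested in mural cells. The shares over all genes were 6.15% and 9.27%. The list had a median of 2.76. The largest were Sorbs2 (9.90 ± 0.97), Mrvi1 (7.94 ± 0.52), Pdlim3 (7.35 ± 0.49) and Synpo2 (7.33 ± 0.47), adaptor and filament-associated genes, and the 2 lower were the nonmuscle myosin heavy chain Myh10 (-4.15 ± 0.78) and the tropomyosin Tpm3 (-1.68 ± 0.43). In perimysial cells 4 of 38 were higher, Cnn2 (2.59 ± 0.18), Tpm1 (2.51 ± 0.24), Cnn3 (1.69 ± 0.14) and Myl12a (0.60 ± 0.12), and Mustn1 (-2.36 ± 0.38) and Fhl1 (-1.09 ± 0.12) were lower, with a median of -0.19. Over all genes 2.32% were called higher and 3.26% lower.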

How the data were processed

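Raw counts per gene were deposited by the authors, who, per the labels, demultiplexed with bcl2fastq and counted with featureCounts. The study's methods name TopHat over Bowtie or Bowtie2 on GRCm38 (mm10), adapter trimming and a step that removed what they call doublets with samtools. Strand use and annotation release are not given in the sources used here. Of 1754 columns 1 had no label and was not used. Symbols matched 46005 of 46517 gene identifiers, and 92 spike-ins (1.31% of counts) were left out. Doublets had been gated against at the sort, and no caller was run here. The study also removed cells with very many expressed genes as potential doublets. It further removed cells with endothelial or immune contamination and cells expressing neither Pdgfra nor Pdgfrb. Members and gene lists were chosen with earlier results of these data known.

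Counts were summed per class and strain label (3 or more cells of both classes), filtered with filterByExpr, scaled by TMM and tested with edgeR 4.0.16 (R 4.3.3, quasi-likelihood, strain label as block, Benjamini-Hochberg over all genes, called under 0.05). Labels pair the classes because each label supplied both, although C57BL6, PdgfrbGFP and the pool each spanned more than a single plate. The plates of the pool also differed in muscle. In C57BL6, 4 of 9 mural cells came from a plate with 7 labelled cells. Its mural and fibroblast sums thus drew on the plates in unequal parts. Simulated data were used to test the fits. Alternatives were RLE factors, no filter, DESeq2 1.42.0, no block, plate as unit, cells weighted alike, each label left out, a limit of 20, cells thinned to 40000 counts and, added after seeing the data, cluster 7 without 11 cells carrying markers of other types and shares averaged over labels. The depth of 46097 to 1055869 counts per cell puts 1 read at 10.8 to 0.474 scaled counts. Medians over cells were an alternative to means. Named genes were the 10 members, the 10 genes most and least correlated with their mean in cluster 7 (of those carried by 30% of its cells), the 10 most correlated over cluster and strain sums, and up to 4 called genes per list. Other genes were named after their values were seen. Python 3.11.15 with numpy 2.4.6, scipy 1.17.1 and pandas 2.3.3 computed the rest.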

Additional observations from a re-analysis of the deposited data

Results flagged for a closer look

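In 15 of 50 groups of 4 or 5 strain labels, 1 label lay farther from the others than Dixon's 95% limit allows, which chance does in about 1 of 20 groups, and in each of them it was the highest label, Acta2GFP. For Myh11 its mean was 22.9 scaled counts in cluster 2, 21.2 in cluster 9, 26.5 in endomysial and 24.03 in all fibroblast cells. For Tagln it was 76.8 in cluster 2, 39.2 in endomysial and 70.97 in all fibroblast cells. Cnn1 stood at 9.99 in cluster 2, 10.2 in cluster 9, 9.74 in endomysial and 9.47 in all fibroblast cells. Lmod1 stood at 3.93 in cluster 9, 5.39 in endomysial and 4.45 in all fibroblast cells, and Actg2 at 2.04 in cluster 9. These groups overlap, since the fibroblast cells contain the others. The mural means of Acta2GFP for the same genes were within the range of the other labels except for Lmod1, where 457 was the highest.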

How the results depend on the processing

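All 10 members kept their call and direction in mural against fibroblast cells under every alternative of that test. Cluster 7 had the highest level of 10 members by the mean and of 9 by the median over cells, where Actg2 was at 0. The order of Myh11, Cnn1 and Lmod1 changed: by plate they were at 9.35, 8.69 and 9.41, and without the 11 cells of cluster 7 at 8.87, 8.44 and 8.78. In perimysial against endomysial cells the count of 4 was 5 with DESeq2, 3 with cells weighted alike and 1 to 5 with a label left out. Without the replicate block, which ignores that each strain label supplied both classes, it was 1 (Mylk at 2.45), and Acta2 (2.36), Tagln (2.94), Myl9 (1.00) and Tpm2 (1.23) were not called. The cause was not tested. No member was called for cluster 4 or 10 under any alternative, and the block changed no other member's call.

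The sign reversed for uncalled members of those clusters alone. In cluster 4 it did so for Myl9 (-0.083 without the filter), Tpm2 (0.46 without the block) and Tagln (-0.14 by plate, -0.13 with cells alike), and with 1 label left out for Tagln (-0.37 to 0.70, negative without Acta2GFP), Smtn (-0.59 to 0.092, positive without C57BL6), Myl9 (-0.20 to 0.18, negative without Acta2GFP or the pool) and Tpm2 (-0.88 to 0.60, positive without C57BL6). In cluster 10 it did so for Myh11 by plate (-0.0071), and with 1 label left out for Myh11 (-0.33 to 0.63) and Myl9 (-0.052 to 0.84) without Cspg4dsRED, Tagln (-0.043 to 1.10) without PdgfrbGFP and Mylk (-0.16 to 1.42) without the pool.

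Counts of all genes called moved more: 2140 mural calls became 4336 with DESeq2 and 1230 without PdgfrbGFP; 787 perimysial calls became 2068 with DESeq2, 1294 by plate and 395 to 1416 with a label left out; 14 paramysial calls became 796 with DESeq2, 26 by plate, 8 without the block and up to 64 without Acta2GFP; 55 cluster 10 calls became 993 with DESeq2, 2.02 times as many by plate, 274 without the filter and 0 to 216 with a label left out, 0 being without PdgfrbGFP.

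Within cluster 7 the median member correlation of 0.564 was 0.605 without plate centring, 0.542 for cells of 100000 or more counts and 0.407 to 0.655 with a label left out. The median share of cells carrying a member, 96.3%, was 97.9% at a limit of 20 and 96.3% after thinning.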

Other observations

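The genes whose level over cells of cluster 7 was most like the mean of the members, among 930 other genes carried by at least 30% of these cells, were Tpm1 (r = 0.67), the matrix glycoprotein gene Sparcl1 (0.59), the myosin light chain gene Myl6 (0.57), the creatine kinase gene Ckb (0.57), the filamin gene Flna (0.55), Mustn1 (0.54), Vim (0.49), the myosin phosphatase inhibitor gene Ppp1r14a (0.49), Dstn (0.48) and Bcam (0.48). At the other end were Gm26377 (-0.28), Eef1a1 (-0.28), Ifitm3 (-0.25), Zfp36l1 (-0.24), Ftl1 (-0.24), Clk1 (-0.24), Serping1 (-0.20), Rps7 (-0.19), Rpl21 (-0.18) and Ddx5 (-0.18). From the lowest to the highest part of the cells, mean Flna went from 1448 to 2350 scaled counts, Ckb from 699.9 to 1210.5 and Serping1 from 765 to 404. Without the 11 cells of cluster 7 that carried markers of other cell types, the first 10 genes had r of 0.36 to 0.64 and the last 10 of -0.29 to -0.14. The median r of all 930 genes was 0.10, and cells of 1 plate share their library preparation.

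Over the 40 sums per cluster and strain label, where mural sums stand apart from the rest, the 10 most similar of 16789 genes were Sncg (r = 0.954), P2rx1 (0.944), Kcnmb1 (0.940), Pln (0.939), Gm44596 (0.933), Olfr558 (0.932), Tinagl1 (0.932), Olfr78 (0.929), Pcp4l1 (0.928) and Gja4 (0.926). They include a synuclein, a purinergic ion channel, a calcium-activated potassium channel subunit, phospholamban, a pair of olfactory receptors and a connexin.

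In cluster 10 the forkhead gene Foxs1 was the only regulator called against endomysial cells, 3.83 ± 0.43 higher on the log2 scale (edgeR, adjusted p = 0.0279). It was at 195 ± 128.3 scaled counts there (SD, n = 3) and 64.9 ± 39.4 in cluster 7 (n = 5). The call was lost without PdgfrbGFP, which supplied 8 of the 62 cells of cluster 10, since 0 genes were called then.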
